A study of Homo sapiens with 2 samples.

Results

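Short transcripts of the reference annotation were described in engineered U2OS cells, an established human line from an osteosarcoma. The members are the annotated transcripts under 200 bases, other than small nucleolar and Cajal body RNAs, that reached an FPKM of 1 or more with status OK in at least 1 of 2 libraries. FPKM counts fragments per kilobase of a transcript relative to all mapped fragments. The rule kept 206 of 95380 reference transcripts, and 6799 of those 95380 are under 200 bases. The FPKM values of these same libraries chose the members, so all levels are a description with no test.

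Both libraries were made from poly(A) RNA of untreated G1S-CCPM-Cas9 U2OS cells and form 1 group, replicate 1 and replicate 2. The cells hold a fluorescent marker that follows entry into S phase and express the nuclease Cas9, and all cells grew under geneticin at 500 µg/mL. Whether the replicates came from separate cultures is not stated, so their spread may be technical, and nothing in the design sets one condition against another. Summed over reference transcripts, the mesenchymal filament gene VIM stood at FPKM 1003 and 815 and the bone matrix gene SPARC at 312 and 297 in replicates 1 and 2. The bone markers COL1A1 (69.2 and 82.6), ALPL (2.41 and 1.76) and RUNX2 (1.29 and 1.77) were also above FPKM 1. The leukocyte, endothelial and hepatocyte markers PTPRC, PECAM1 and ALB were each under FPKM 0.18 in both libraries.

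Very short annotated RNAs belong to several families. MicroRNA hairpins are cut out of longer primary transcripts, often from introns, and give mature arms that guide silencing of messenger RNAs. Spliceosomal snRNAs build the machine that removes introns. Y RNAs bind the Ro60 protein, vault RNAs are part of the vault particle, and tRNAs carry amino acids to the ribosome. These mature small RNAs mostly lack a poly(A) tail. Stretches of mitochondrial DNA copied into the nuclear genome are a further class of locus, and parts of them carry annotated short transcripts.

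The members were 136 transcripts of 107 genes with LOC symbols (genes without an assigned name), 43 microRNA hairpins, 18 transcripts without a symbol, 7 snRNAs and 2 pseudogenes of the U6 snRNA. No Y RNA (4 rows), vault RNA (4 rows), tRNA (628 rows) or mature microRNA arm (2608 rows of 16 to 28 bases) was listed above 0 in either library. No member is as short as these arms, so their listed 0 may not be a measured absence. The 22 short rows of the mitochondrial chromosome, which only the replicate 1 table used here lists, were all at 0. Of 1928 hairpin rows 2.23% were members, of 642 LOC rows 21.2% and of 33 snRNA rows 21.2%. The members were 46 to 198 bases long with a median of 88.5. Of the 206, 54 have a genomic span equal to their length, and 152 span more genome than their length and are thus spliced. Those 152 have a median length of 78.5 bases and a median span of 12172 bases.

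The 2 members of highest FPKM, MIR6723 and LOC101927337, have genomic spans that overlap nuclear copies of MT-CO1, the mitochondrial gene for cytochrome c oxidase subunit I. The hairpin gene MIR4461 lies over a copy of MT-ND4L, a subunit gene of respiratory complex I. The stretches are shown because these 3 loci carry the highest LOC value and the 2 highest hairpin values. They are GENCODE release 29 sequences on GRCh38, 5′ to 3′ in the sense of the mitochondrial gene, and capitals mark the bases that differ from the closest mitochondrial transcript of that release.
MIR6723, chr1:632325-632413, plus strand, within the pseudogene MTCO1P12: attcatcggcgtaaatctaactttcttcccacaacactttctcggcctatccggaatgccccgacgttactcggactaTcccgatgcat
LOC101927337, the 88 bases of its genomic span that overlap the pseudogene MTCO1P40, chr17:53105734-53105821, plus strand: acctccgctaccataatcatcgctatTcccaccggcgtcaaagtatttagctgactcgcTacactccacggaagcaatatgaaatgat
MIR4461, chr5:134928039-134928112, minus strand, within the pseudogene MTND4LP30: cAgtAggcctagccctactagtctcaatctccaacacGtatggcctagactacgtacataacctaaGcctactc
The stretch at MIR6723 differed from MT-CO1 at 1 of 89 bases, that at LOC101927337 at 2 of 88 and that at MIR4461 from MT-ND4L at 4 of 74. LOC101927337 is spliced and the tables give no exons, so how many of these 88 bases its transcript of 103 bases holds is not known. GENCODE puts the hairpin gene MIR6723 on the minus strand, opposite to MTCO1P12, and MIR4461 on the plus strand, opposite to MTND4LP30 and inside an intron of PCBD2.

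MIR6723 stood at FPKM 28432 (deposited bounds 26892 to 29971) in replicate 1 and at 50316 (47839 to 52792) in replicate 2. LOC101927337, a transcript of 103 bases on chromosome 17 (53088581 to 53105821), stood at 5988 (5563 to 6412) in replicate 1 and at 12259 (11546 to 12973) in replicate 2. Both were higher in replicate 2, with bounds apart. The log2 ratio of replicate 1 over replicate 2, computed on FPKM + 1 here and throughout, was -0.82 for MIR6723 and -1.03 for LOC101927337. MIR4461 was at 126.8 and 112.8, with bounds that overlapped. LOC102724870 (chromosome 5, 100052277 to 100052611) overlaps the pseudogene MTATP6P2, a copy of the gene for a subunit of ATP synthase, over 321 bases of its span that are 89.7% identical to MT-ATP6. It stood at 47.6 (29.6 to 65.6) in replicate 1 and at 102.4 (75.1 to 129.8) in replicate 2, a log2 ratio of -1.09.

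These 4 members held 87.3% of all fragments of the members in replicate 1 and 91.3% in replicate 2 (fragment numbers were recovered as described next). In the tables used here the mitochondrial chromosome had 25 rows in replicate 1 and 0 in replicate 2. Of the 25, the 24 reference rows were at 0, and the other was an assembled transcript of 16563 bases at FPKM 569. Within a copied stretch, fragments of the mitochondrial genes and of these copies can be told apart only where they cover a differing base. The spans of LOC101927337 and LOC102724870 extend beyond their copies, and how many fragments reached beyond is not known. The 4 values are thus uncertain, and which source gave the fragments was not tested.

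FPKM at these lengths moved in steps. Rows of one length took values that are whole multiples of one smallest value, which is what 1 fragment is worth at that length. Among members above 0, 134 of 142 in replicate 1 (94.4%) and 142 of 154 in replicate 2 (92.2%) came out within 0.05 of a whole number of fragments. One fragment was worth FPKM 219 in replicate 1 and 228 in replicate 2 at 46 bases. At 100 bases it was worth 5.47 and 5.68, and at 198 bases 0.462 and 0.480. It exceeded FPKM 1 up to 158 bases in replicate 1 and 160 bases in replicate 2, so a shorter transcript became a member with its first fragment. The ratio of replicate 2 over replicate 1 was 1.04, as a median over lengths. The median of mean FPKM was 102.3 for the 40 members of 40 to 60 bases and 1.46 for the 31 members over 150 bases, while the median number of fragments in the higher library was 2 and 3.

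**Figure D1:**
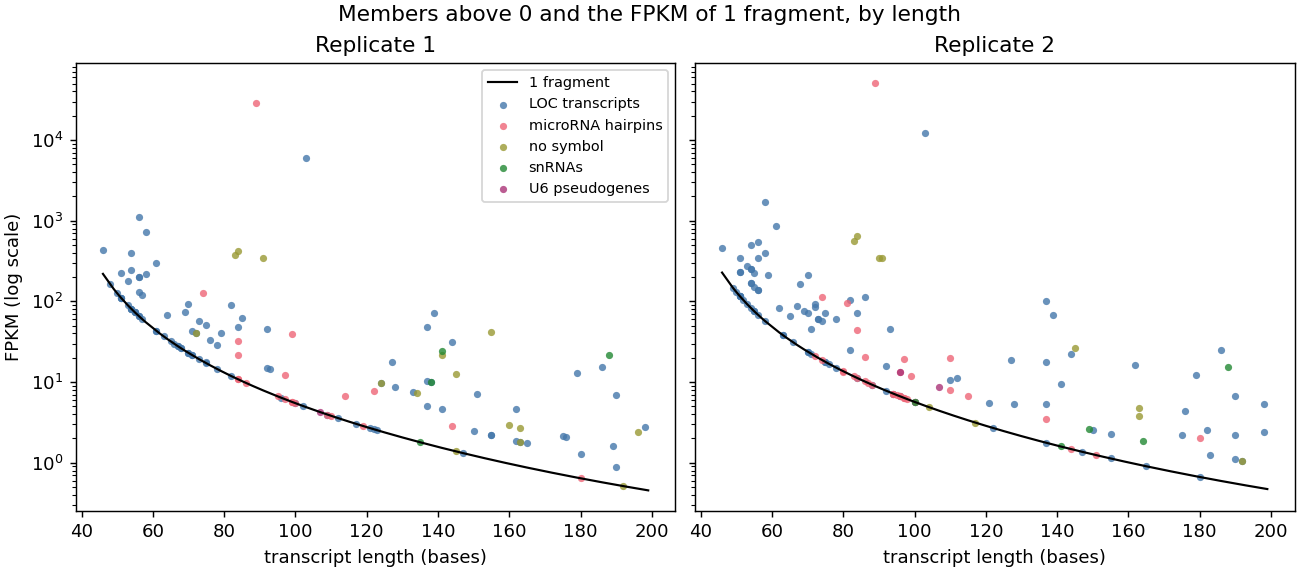
FPKM (log scale) against transcript length in bases for members above 0 in replicate 1 (left) and replicate 2 (right), coloured by RNA type; the black line is the FPKM of 1 fragment. The line falls from 219 at 46 bases to 0.462 at 198 bases in replicate 1, many members lie on it, and MIR6723 and LOC101927337 stand far above it.

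Most members rested on a handful of fragments. In the library with the higher value, 78 of 206 had 1 fragment, 158 had at most 4, 34 had 5 to 19 and 14 had 20 or more. A total of 63 members had a single fragment in both libraries together. The deposited lower bound was above 0 in either library for 46 members and in both for 21. Summed over members, 5241 fragments were recovered in replicate 1 and 8900 in replicate 2. MIR6723 had 3315 and 5651 of these and LOC101927337 had 1224 and 2414, which left 702 and 835 for all other members.

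**Figure D2:**
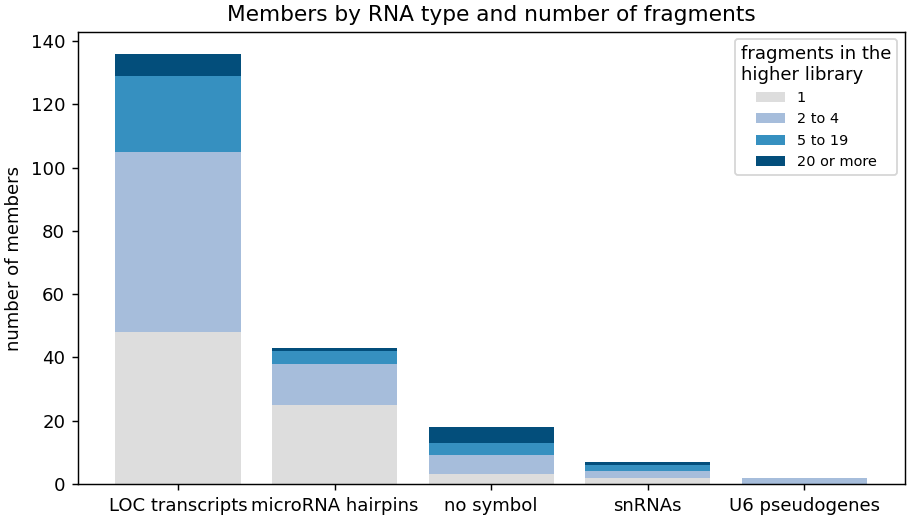
Number of members (bar height) by RNA type, split by the number of recovered fragments in the library with the higher value. Of the 136 LOC transcripts 105 had at most 4 fragments and 7 had 20 or more, and of the 43 microRNA hairpins 38 had at most 4 and 1 had 20 or more.

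MicroRNA hairpins were detected mostly by 1 to 4 fragments. After MIR6723 and MIR4461, the highest hairpins were MIR6516, MIR25, MIR589, MIR7161, MIR659, MIR3936, MIR3689E and MIR186. Of these, MIR25, MIR589, MIR659 and MIR186 are shown as mature arms from RefSeq (GRCh38.p14), with the seed (bases 2 to 8, which pair with target messenger RNAs) in capitals. The files list the arms themselves at 0, so the letters identify the hairpins and are not what was measured.
miR-25-3p: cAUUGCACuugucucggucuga
miR-589-5p: uGAGAACCacgucugcucugag
miR-659-3p: cUUGGUUCagggagggucccca
miR-186-3p: gCCCAAAGgugaauuuuuuggg
Of the 43 hairpin members 35 were in the RefSeq table, 34 of them with mature arms. Their 50 listed arms had 50 different seeds, so no 2 of these 34 shared one among the listed arms. The seeds of the other hairpin members were not compared.

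MIR25, a hairpin of the cluster in an intron of MCM7 on chromosome 7 (100093560 to 100093643), was at FPKM 32.3 in replicate 1 and 44.8 in replicate 2, from 3 and 4 fragments. MIR589 (chromosome 7, 5495819 to 5495917), in an intron of FBXL18, was at 39.8 and 11.8, from 7 and 2 fragments. Their lower bounds reached 0 in at least 1 library, and the bounds overlapped between the libraries. MIR659, in an intron of ANKRD54, was at 6.15 and 19.1, and MIR3936, in an intron of its host gene MIR3936HG, at 3.82 and 19.8. MIR7161, in an intron of TMEM181, was at 21.6 and 11.2. MIR6516, which overlaps an exon of SNHG20, was listed at 0 in replicate 1 and at 94.9 in replicate 2. MIR186, in an intron of ZRANB2, was listed at 0 and at 20.4, and MIR3689E at 0 and at 21.1 from 1 fragment. No hairpin met the rule for differing between libraries given further on, although MIR6723 and MIR6516 met it, as higher in replicate 2, once both libraries were scaled to one sum over longer transcripts.

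Of the 43 hairpins, 10 reached FPKM 1 in both libraries, 10 in replicate 1 alone and 23 in replicate 2 alone. By GENCODE, 31 lie inside a protein-coding gene on the same strand: 26 in introns only and 5 touching an exon. For 23 of these 31 the reference transcripts of the host gene summed to FPKM 1 or more in both libraries. The rest include SEC14L1, the host of MIR6516, and C15orf48, the host of MIR147B, for which no value was found under those names. The host of MIR25, MCM7, was at 48.1 and 35.5, that of MIR589, FBXL18, at 14.99 and 12.8, and that of MIR186, ZRANB2, at 26.4 and 30.1. ANKRD54, the host of MIR659, was at 8.92 and 4.33, and TMEM181, the host of MIR7161, was listed at 0 in both libraries. Judged by the deposited loci, 27 of 43 hairpin members (62.8%) lay wholly within a longer transcript at FPKM 1 or more, against 772 of the other 1885 hairpins (41.0%). The same was so for 14 of 136 LOC members (10.3%) and for 46 of all 206 members (22.3%). No test was made of these shares. Fragments of an intron or exon of the host can count for a hairpin, and whether they did was not tested.

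Of the snRNAs, RNU2-1, a gene for U2, which pairs with the intron branch point, and RNU4-2, a gene for U4, which holds U6 in an inactive pairing, had the most fragments. Both are shown from GENCODE release 29 (GRCh38, minus strand). Capitals mark the first match to ATTTTTG or ATTTTTTG, searched as forms of the site that binds the ring of Sm proteins.
RNU2-1, chr17:43233787-43233977: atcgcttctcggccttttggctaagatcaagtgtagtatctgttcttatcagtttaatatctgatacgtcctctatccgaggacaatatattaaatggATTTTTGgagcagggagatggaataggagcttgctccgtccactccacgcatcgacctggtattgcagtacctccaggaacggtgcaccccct
RNU4-2, chr12:120291763-120291903: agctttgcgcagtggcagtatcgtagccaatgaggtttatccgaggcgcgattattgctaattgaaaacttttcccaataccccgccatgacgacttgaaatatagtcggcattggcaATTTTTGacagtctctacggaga
Of the 7 snRNA members 6 held the motif on their own strand and none on the other. Over all 8524 GENCODE transcripts under 200 bases the share was 2.73% on the transcript's strand and 1.74% on the other. The snRNA member with neither form was RNVU1-4. Other forms of the site were not searched, so this does not show that RNVU1-4 lacks one.

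RNU2-1 stood at FPKM 21.5 in replicate 1 and 15.5 in replicate 2, from 39 and 27 fragments, with bounds that overlapped. RNU4-2 stood at 24.5 in replicate 1 and at 1.59 in replicate 2, from 16 fragments and 1, with bounds apart and a log2 ratio of 3.30. RNU2-2P, another U2 gene that overlaps an exon of WDR74, was at 9.94 in replicate 1 (6 fragments) and listed at 0 in replicate 2. WDR74 was at 31.9 and 25.1, and whether its fragments counted for RNU2-2P was not tested. The remaining 4 rested on 1 or 2 fragments in a single library. RNU11 (U11, which finds the start of minor introns) was at 1.79 in replicate 1 and 0 in replicate 2. RNU12 (U12, which pairs with their branch point) was at 0 and 2.61, RNU5D-1 (a U5 gene) at 0 and 5.68, and RNVU1-4 (a variant U1 gene) at 0 and 1.85. RNU2-1 and RNU2-2P are 95.8% identical over 191 bases, and RNU4-2 and RNU4-1 are 97.2% identical over 141 bases. RNU4-1 was listed at 0 in both libraries, and how fragments were shared between these copies cannot be told apart from the tables.

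All 4 annotated RNU1 genes, the 5 RNU6 genes and RNU7-1 were among the 26 snRNA rows at 0 in both libraries. A count of 0 allows up to 3 fragments, which at the length of the RNU1 rows is FPKM 2.67 in replicate 1 and 2.77 in replicate 2. For the Y RNAs RNY1, RNY3, RNY4 and RNY5 the same limit ran from 10.4 to 32.3 in replicate 1 and from 10.8 to 33.6 in replicate 2. For the vault RNAs VTRNA1-1, VTRNA1-2, VTRNA1-3 and VTRNA2-1 it ran from 16.4 to 26.9 and from 17.04 to 27.9. These limits cover counting error only. No such limit was worked out for the tRNAs or for the mature microRNA arms, which are shorter than any member. Of the U6 pseudogenes, RNU6-26P was at 4.24 and 8.80, and RNU6-52P was listed at 0 and at 13.3.

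Spliced LOC transcripts filled most of the remaining top places. LOC101929612, on chromosome 1 (215481830 to 215499834) with no GENCODE gene over its span, was at FPKM 718 in replicate 1 and 1720 in replicate 2, from 13 and 30 fragments. LOC102723931, whose span on chromosome 8 (144037054 to 144044456) overlaps the centriole protein gene SPATC1, was at 1125 and 550, from 17 and 8 fragments. LOC101926970, within the span of the splicing regulator gene RBFOX2 on chromosome 22, was at 301 and 849, from 7 and 19 fragments. For all 3 the bounds overlapped between the libraries.

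The others of the 15 highest members were 46 to 58 bases long, apart from 3 unnamed transcripts described further on, and held at most 7 fragments in a library. LOC102723308, within the span of RBFOX1, was the shortest member at 46 bases and stood at 439 and 455, from 2 fragments in each library. LOC102723653, over PDZD2, was at 403 and 501 from 5 and 6 fragments, and LOC102724888, over the actin regulator gene MICAL2, at 221 and 401 from 4 and 7. LOC102723868 was at 242 and 251, and LOC102723882, over GUCA1A, at 223 and 232, each from equal numbers of fragments in both libraries. LOC102724071 was at 89.3 and 278, from 1 fragment and 3. LOC102723860 was listed at 0 in replicate 1 and at 348 in replicate 2, from 3 fragments. Of all 152 spliced members 100 had a span that overlaps a GENCODE gene, 61 of them a protein-coding gene, and 52 had none.

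**Figure D3:**
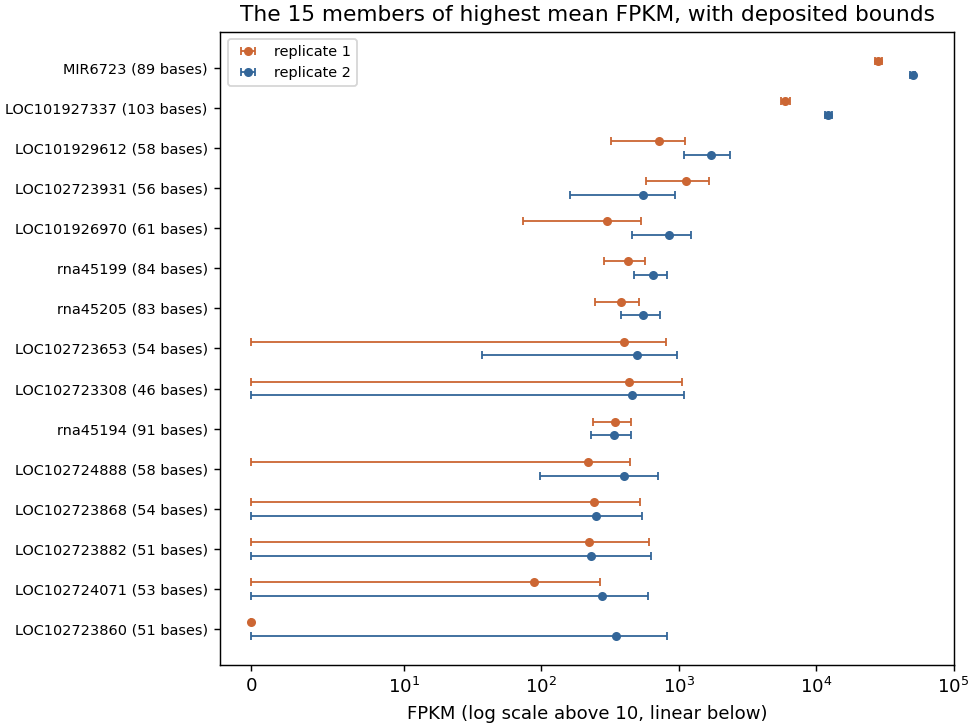
FPKM of the 15 members of highest mean FPKM in replicate 1 and replicate 2 (points) with the deposited confidence bounds (bars); the axis is logarithmic above 10 and linear below. MIR6723 and LOC101927337 have narrow bounds that do not overlap between the libraries, and 5 of the other members have a bar that reaches 0 in replicate 2.

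A stretch of chromosome 10 (97696982 to 97720720) around MARVELD1 held 4 overlapping unnamed transcripts of 83 to 91 bases. The first 2 were at 425 and 379 in replicate 1 and at 647 and 555 in replicate 2. The third was at 346 in replicate 1 and 341 in replicate 2. The fourth was listed at 0 in replicate 1 and at 343 in replicate 2, with bounds apart. Their fragments, which the tables divide among the overlapping rows, summed to 117 in replicate 1 and 187 in replicate 2. MARVELD1 itself, with a transcript of 3237 bases, was at 15.5 and 11.9.

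Such division between rows of one gene was common: 17 LOC genes had 2 to 6 member rows, 46 rows in all. In 5 of the 17 some rows were at 0 in replicate 1 and others at 0 in replicate 2. LOC102724932 had 2 rows of 51 bases, one at 111.7 in replicate 1 and 0 in replicate 2 and one at 0 and 115.9, so that the gene had 1 fragment in each library. LOC102723609 likewise had one row at 61.7 and 0 and another at 0 and 112.1, which made 6 fragments for the gene in replicate 1 and 11 in replicate 2. LOC102724664, within the span of the noncoding gene CASC15, had 5 rows that summed to 470.1 and 875.2, from 7 and 12 fragments. Values of single rows of these genes depend on which row received the fragments.

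Some members were covered better than their FPKM rank shows. LOC497256 (chromosome 9, 87933129 to 87938927), picked after its values were seen, was at FPKM 72.6 and 67.0 from 45 and 40 fragments, the most of any member outside the copies of mitochondrial genes in replicate 1. On the unplaced scaffold GL000220v1, which carries genes for 5.8S ribosomal RNA, LOC102723515 was at 15.5 and 24.97 from 27 and 42 fragments. It lies 9896 bases from the nearest of those rRNA genes. The other members of that scaffold were present in replicate 1 and listed at 0 in replicate 2: LOC101928428 (9.94) and an unnamed transcript of 141 bases (21.4).

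Of the 206 members 22 had 5 or more fragments in both libraries. Of these, the following were named after their values were seen. LOC101928149, over RAD51AP2 on chromosome 2, was at 31.2 in replicate 1 and 22.1 in replicate 2, from 22 and 15 fragments. LOC102723725, over the noncoding gene LINC01500, was at 17.95 and 18.6, from 8 fragments in each. LOC101928430, over LINC01322, was at 12.9 and 12.2, and LOC101927395 at 6.92 and 6.63 from 13 and 12 fragments. In these 4 the libraries lay close together, with log2 ratios from -0.05 to 0.48. LOC101929647, over the U6 pseudogene RNU6-1254P, stood further apart at 4.65 and 16.4, from 5 and 17 fragments, with bounds that overlapped. So did an unnamed transcript of chromosome 7 (61005069 to 61006535), at 12.5 and 26.6. LOC102724492 on chromosome 6 had a row at 89.0 and 102.7, 1 of 3 rows whose fragments summed to 12 and 19, and LOC101928645 is given with the rows nearest the length limit.

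Between the libraries, a transcript was counted as differing when its log2 ratio was at least 1 in size with deposited bounds that did not overlap. Of the 206 members 10 met this (4.85%), 5 in each direction, against 18.6% of all 19309 reference transcripts at FPKM 1 or more in either library, 10.1% being higher in replicate 1 and 8.42% higher in replicate 2. A transcript with a lower bound of 0 in both libraries cannot meet the rule. That held for 160 members (77.7%) and for 224 of the 19309 (1.16%), so the shares do not compare how well the libraries agree. The 10 are among the 46 members with a lower bound above 0 in either library. Higher in replicate 1 were an unnamed transcript of chromosome 7 (57866109 to 57868050; 41.4 against a listed 0), the scaffold transcript at 21.4, RNU2-2P, RNU4-2 and LOC102724925 (7.18 against a listed 0). Higher in replicate 2 were the unnamed chromosome 10 row, LOC102723609, LOC101928981 (a listed 0 against 2.40), LOC102724870 and LOC101927337. The chromosome 10 row and the counted row of LOC102723609 overlap other member rows, among which fragments were divided. Over all rows of the locus, fragments summed to 117 and 187 on chromosome 10 and to 6 and 11 for LOC102723609, in replicates 1 and 2. RNU2-2P, LOC102724925 and LOC101928981 counted because the upper bound of the library at 0 is itself deposited as 0. With the value of 3 fragments as that bound, 7 members counted, 3 higher in replicate 1 and 4 higher in replicate 2, and these 3 did not. That bound was not applied to all 19309 transcripts, so the 18.6% is no background for the 7. LOC101928428, which like RNU2-2P had 9.94 in replicate 1 and a listed 0 in replicate 2, has a deposited upper bound of 3.44 there and did not count. By the fold alone 144 members counted (69.9%), against 19.6% of all 19309 transcripts. A transcript at 0 in 1 library and at FPKM 1 or more in the other meets the fold by construction. That was so for 116 members (56.3%) and for 16.9% of the 19309, so both shares mostly count zeros. With 1 group of 2 libraries no test of these differences exists.

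**Figure D4:**
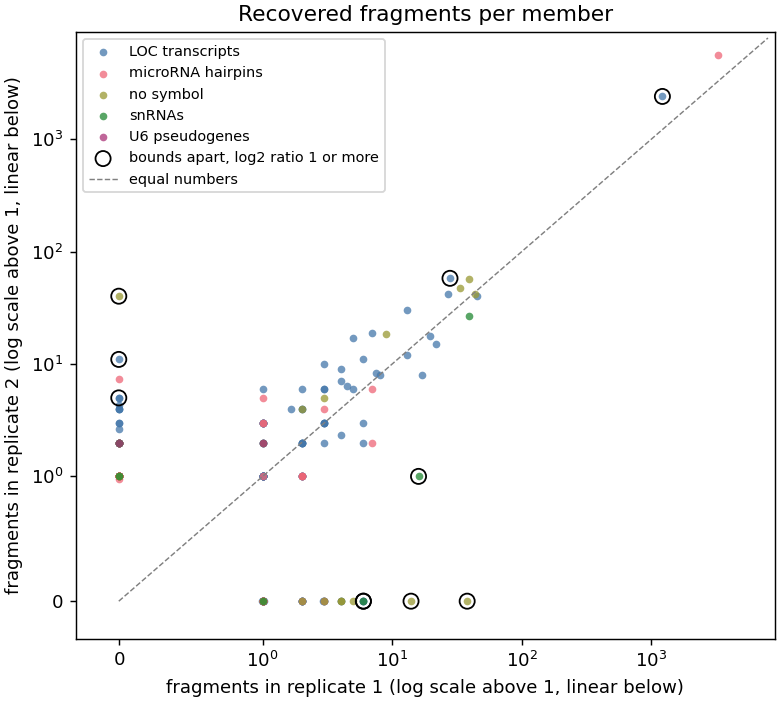
Recovered fragments per member in replicate 1 (horizontal) and replicate 2 (vertical), coloured by RNA type; axes are logarithmic above 1 and linear below, circles mark the 10 members with bounds apart and an absolute log2 ratio of 1 or more, and the dashed line marks equal numbers. Points on the 2 axes are the 64 members at 0 in replicate 1 and the 52 at 0 in replicate 2.

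The median log2 ratio of the members was -0.50, against 0.07 over all 19309 transcripts. At 0 were 64 members in replicate 1 and 52 in replicate 2. Among the 90 members above 0 in both libraries the median was -0.05, and among the 22 with 5 or more fragments in both it was -0.43. A log2 ratio of -0.05 is also that of LOC102723868, which had 3 fragments in each library. The SD of the log2 ratio was 3.48 over members, 0.96 over the 57 reference transcripts of 200 to under 300 bases and 1.01 over the 19017 of 200 bases or more. FPKM 1 was reached in both libraries by 85 of 206 members (41.3%), against 54.4% of those of 200 to under 300 bases and 78.2% of all of 200 bases or more. The lower bound was 0 in both libraries for 77.7% of members, against 19.3% and 0.0578%. These sets were chosen by the same FPKM values, and the differences were not tested.

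The members made up 8.29% of the summed FPKM of reference transcripts in replicate 1 and 15.7% in replicate 2. Weighted by length, as coverage times length, they made up 0.372% and 0.708%. MIR6723 and LOC101927337 supplied 6.55% and 12.8% of the FPKM sum, and the other members 1.74% and 2.82%. A share of FPKM is not a share of molecules. The deposited coverage followed FPKM: the median ratio of coverage to FPKM was 5.80 in replicate 1 and 5.59 in replicate 2 for unspliced members, against 5.78 and 5.56 for transcripts of 1000 bases or more. For spliced members under 100 bases it was 3.21 and 3.05. Coverage thus carries the same length scale, and for MIR6723 it was listed at 163960 and 280023, above the number of fragments recovered.

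Of the rows nearest the thresholds, those just inside FPKM 1 were LOC101927918 (0 and 1.07), an unnamed transcript of 192 bases (0.513 and 1.07) and LOC101927026 (0 and 1.10). Just outside were LOC102724139 (0 and 0.945), MIR6753 (0 and 0.924) and LOC102723654 (0 and 0.831), 3 of 8 rows above 0 that missed the minimum. Just inside the length limit were LOC101928645 (198 bases, 2.77 and 5.28), LOC101928981 (198 bases) and an unnamed transcript of 196 bases (2.39 and 0). Just outside were BCYRN1, a noncoding RNA known from brain (200 bases, 695 and 367), LOC102724623 (200 bases, 2.68 and 0) and LOC102723985 (205 bases, 0.411 and 3.41).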

How the data were processed

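Poly(A) RNA was sequenced in 2 libraries. The submitters' processing notes name Cufflinks 2.2.1, Bowtie2 2.2.3, TopHat2 2.0.13, FastQC 0.11.2 and Trimmomatic 0.32, and build GRCh38. Settings, annotation release and the use of strand were not given in the sources used here. The authors deposited FPKM with confidence bounds and a status per transcript, and an estimated coverage signal, per the file headers. The gene tables were not used.

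Python 3.11.15 with pandas 2.3.3, numpy 2.4.6, matplotlib 3.10.9 and edlib 1.3.9.post1 was used. Transcripts were matched by identifier. Of 206 members 185 were named by the files, 2 by RefSeq position and 1 by GENCODE 29 position; snoRNAs under older symbols were left out. File starts count from 0, and 1 was added: 43 of 46 positions then equalled RefSeq, against 1 without it. FPKM of 1 fragment was taken per length from rows with up to 20 fragments whose bounds imply a whole number within 0.01; absolute depth is otherwise unknown. Ratios used a pseudocount of 1, which understates low rows.

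The members, classes and lists were chosen with earlier results of these data known. Named were the 15 highest members, up to 10 per direction with bounds apart, all snRNA, Y and vault members, the 10 highest hairpins and 3 rows at each side of a threshold. The recovery of fragments and the counting rule were run on simulated data. Their bounds were built by the formula that the recovery inverts, and no simulated rows shared fragments. That run therefore checks the code and not the recovery in the real rows. Alternatives varied the FPKM, length and status limits, pseudocount, scaling, bounds, overlap and libraries.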

Additional observations from a re-analysis of the deposited data

How the results depend on the processing

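The number of members, 206, ranged from 139 to 152 with either library left out and was 85 with FPKM 1 required in both. It stayed within 1.5 times under the other limits on FPKM, length and status, and was 212 with snoRNA symbols as the files give them, an alternative chosen after seeing the data. The number of members differing between the libraries, 10, was 6 with a pseudocount of 10, 144 with the fold alone, 3 without members at 0 in either library and, chosen after seeing the data, 7 with an upper bound of 3 fragments for a library at 0. For the counts of 6, 3 and 7 no share over all transcripts was worked out. Scaling both libraries to one sum over longer transcripts changed their relative scale by -0.23 in log2. Through the pseudocount, ratios of rows that are low or at 0 in a library shifted by less. This scaling gave 15 members (7.28%), 5 higher in replicate 1 and 10 higher in replicate 2, MIR6723 and LOC101929612 among those added. Over all 19309 reference transcripts it gave 18.3%, with 1729 higher in replicate 1 and 1812 higher in replicate 2. Without scaling these numbers were 1959 and 1626. The scaled median log2 ratio over all transcripts was not worked out. The median log2 ratio was under 0 in all alternatives run, from -0.73 with scaling to -0.05 without members at 0. That -0.05 is the value of a row with equal fragments in both libraries, because 1 fragment is worth 1.04 times as much FPKM in replicate 2. Its sign therefore shows no shift in fragments. The share of summed FPKM fell to 0.372% in replicate 1 and 0.708% in replicate 2 with coverage times length, and to 1.71% and 2.78% without the 4 members over copies of mitochondrial genes, chosen after seeing the data. No paired analysis was possible because the design holds 1 group. Low fragment numbers limit what can be said of most members: 158 of 206 had at most 4 fragments in the library with the higher value.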
